A study of Mus musculus with 3 samples.

Results

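The genes described here encode heterotrimeric G proteins and their regulators, the RGS (regulator of G protein signalling) proteins. They were taken by symbol: every listed gene named Rgs, Gnb or Gng with a number, the Gngt genes, and G protein alpha subunit genes. The alpha subunit genes are of the Gi, Go, Gz, Gs, Gq, G12/13 and transducin groups. Their symbol pattern did not take every Gna gene listed, so these groups may be incomplete. Rgs9 and Gnb4 were left out. The rule gave 51 of the 32532 genes listed, namely 15 alpha subunit genes, 4 beta subunit genes, 12 gamma subunit genes and 20 Rgs genes. Class sums and shares are those of the genes taken. The RNA came from the cortex-amygdala transition zone of adult, untreated control mice of the transgenic line OI82, in which Lypd1 regulatory DNA drives a fusion of EGFP to ribosomal protein L10a. Tagged polysomes were captured with anti-EGFP antibodies, so the values are levels in ribosome-bound RNA of the cells that carry the tag and of any other RNA held back in the capture. There was 1 group of 3 immunopurified libraries, called replicates 1, 2 and 3. The series names 3 mice without tying a mouse to a library, and no unpurified RNA was analysed here. Since the design holds no second group, the questions that the data can answer are how abundant each member was, how the members compare within a library, and how far the libraries differed.

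Heterotrimeric G proteins carry signals from receptors in the cell membrane to enzymes and ion channels. A receptor that binds its ligand makes the alpha subunit exchange GDP for GTP, and alpha and the beta-gamma pair then act on separate targets until alpha hydrolyses its GTP. RGS proteins speed up that hydrolysis and so shorten the signal. In neurons of cortex and amygdala these proteins stand behind most receptors for monoamines, peptides, acetylcholine, metabotropic glutamate and GABA-B signalling.

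The libraries held 8668527 to 24690301 counts assigned to genes, with the least in replicate 3. Levels are in CPM (counts per 1000000), taken over all counts that a library had in genes. Where a gene had no count, the library allowed for up to 3 counts, which is 0.162 CPM in replicate 1, 0.122 CPM in replicate 2 and 0.346 CPM in replicate 3; these limits cover counting error only. Where levels of different genes are compared, CPM were divided by the length of the gene's annotated exons (CPM per kb), and values are the mean ± SD over libraries (n = 3) unless a library is named. Defining neuronal transcripts were present: all 6 neuronal markers and all 6 glutamatergic markers were detected, against 4 of 8 microglial, 4 of 6 endothelial and 4 of 6 mural cell markers, while all 6 astrocyte markers were detected too. In bulk RNA, fewer cells of a type and less RNA per cell cannot be told apart. The nuclear RNA Malat1 took 3.45%, 1.44% and 8.25% of the counts of replicates 1, 2 and 3.

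Of the 51 members 36 were detected, meaning 1 CPM or more in each library, which is 70.6% against a background of 39.3% of all listed genes. Detected were 10 of 15 alpha subunit genes, 3 of 4 beta subunit genes, 8 of 12 gamma subunit genes and 15 of 20 Rgs genes. The median of the mean level was 70.9 CPM over the detected members and 25.8 CPM over the 12773 detected genes. A mean of 100 CPM or more was reached by 16 members, and 4 members had no count in any library. The summed level of the alpha subunit genes was 574 ± 138 CPM per kb, that of the beta subunit genes 263 ± 74.9, that of the gamma subunit genes 483 ± 167 and that of the Rgs genes 263 ± 113.

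**Figure D1:**
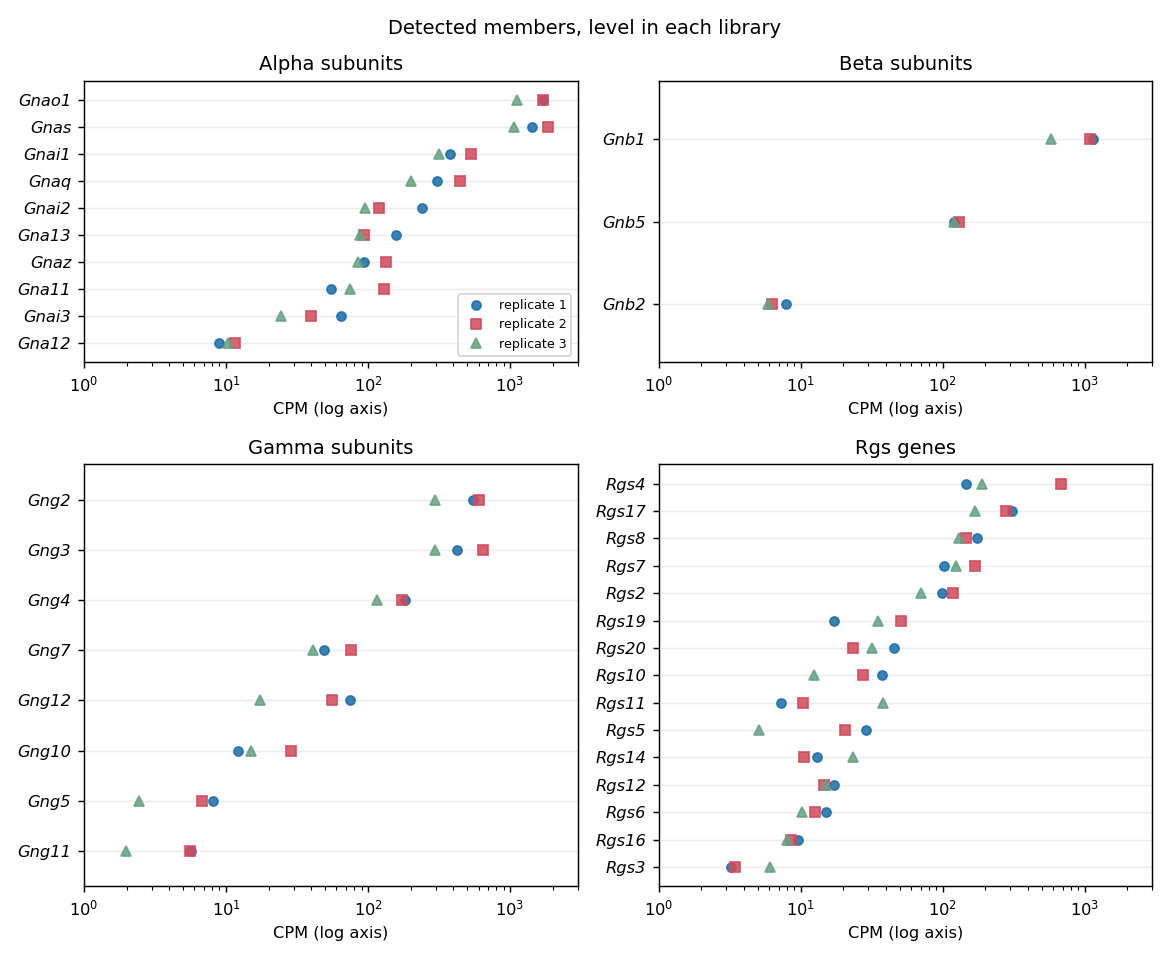
Level of the 36 detected members in each library, in CPM on a log axis, with 1 panel per class and 1 symbol per replicate. Gnao1, Gnas, Gnb1, Gng2 and Gng3 lie far to the right, Rgs4 is far higher in replicate 2 than in the others, and Gnb5 has nearly the same value in all 3 libraries.

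Among the alpha subunits, transcripts of Go, Gs and Gi1 stood at the top. Gnao1 encodes the alpha subunit of Go, the G protein through which many neuronal receptors act on calcium and potassium channels. It measured 1714, 1717 and 1124 CPM in replicates 1, 2 and 3. Gnas, whose main product stimulates adenylyl cyclase, measured 1437, 1864 and 1070 CPM. Gnai1, whose product inhibits adenylyl cyclase, measured 376, 533 and 318 CPM. Of the detected genes, 99.8% had a lower mean level than Gnao1 or Gnas and 98.0% a lower one than Gnai1. All 3 were lowest in replicate 3. Gnao1 spans positions 93809966 to 93969388 on the plus strand of chromosome 8 and Gnas positions 174284320 to 174346744 on the plus strand of chromosome 2 (GRCm38). Gnas is an imprinted locus with several first exons, and 22.0% of its exon bases lie under exons of other genes on the opposite strand. Its counts sum the several products of the locus.

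Per kb of exon the 3 leading alpha genes were not separated. Gnao1 measured 137 ± 30.9 CPM per kb, Gnai1 130.5 ± 35.5 and Gnas 130.3 ± 35.5. The place of Gnai1 rests on this length: its annotated exons hold 3135 bases, against 11053 for Gnao1 and 11186 for Gnas. With the longest coding transcript, at 3135, 5526 and 3947 bases for Gnai1, Gnao1 and Gnas, Gnai1 lies below the others. Without length correction Gnai1 averaged 409 CPM, against 1518 for Gnao1 and 1457 for Gnas. The log2 ratio of Gnao1 to Gnas was 0.27, −0.10 and 0.088 in replicates 1, 2 and 3, averaging 0.086 ± 0.186 with Gnao1 ahead in 2 of 3 libraries (p = 0.75, two-sided exact permutation of the signs). Its sign depended on the length used and on 1 library: it was −0.42 with the longest coding transcript, 1.75 with the longest coding sequence and −0.0071 without replicate 1. Together these genes made up most of the class, with a share of 24.0 ± 1.67% for Gnao1, 22.8 ± 2.53% for Gnai1 and 22.6 ± 1.35% for Gnas of the summed CPM per kb. These shares differed little between libraries although the levels themselves did.

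The other Gi genes were lower, and both were highest in replicate 1. Gnai2, a Gi alpha gene of many tissues, measured 239, 119 and 94.8 CPM, and Gnai3 measured 65.0, 39.7 and 24.6 CPM. Gnai1 exceeded Gnai2 by 1.79 ± 0.78 on the log2 scale per kb, positive in 3 of 3 libraries, with 0.92 in replicate 1 and 2.43 and 2.02 in replicates 2 and 3. The 6 astrocyte markers, led by Slc1a2, Aldoc and Gfap, summed to 2102 CPM in replicate 1 against 1323 and 1302 in replicates 2 and 3. Of these Gja1, at 26.4, 38.2 and 30.1 CPM, was lowest in replicate 1. A peak in replicate 1 was not particular to astrocytes. The GABAergic sum, at 675, 415 and 441 CPM, and the mural cell sum, at 104, 33.5 and 42.9 CPM, had it too. The neuronal and glutamatergic sums were highest in replicate 2. Most of the neuronal sum is Snap25, at 7606, 13126.5 and 6317 CPM. Syt1, Eno2 and Rbfox3 were highest in replicate 2 too, but Map2 and Syn1 in replicate 1. The part of astrocyte RNA in the Gnai2 and Gnai3 values was not tested. Gnaz encodes Gz, a relative of Gi that resists pertussis toxin, and measured 93.7, 133 and 85.3 CPM. Its library order was that of Gnai1, not that of Gnai2.

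Of the Gq group, 2 of 4 genes were detected. Gnaq and Gna11, whose products activate phospholipase C beta, measured 308, 446 and 201 CPM and 54.9, 129 and 74.9 CPM. Both were highest in replicate 2. Gnaq exceeded Gna11 by 1.31 ± 0.54 on the log2 scale per kb, positive in 3 of 3 libraries. Gna14 and Gna15, relatives of restricted tissues, had no count in replicates 1 and 2 and reached 0.231 and 0.808 CPM in replicate 3. The G12/13 group couples receptors to the actin cytoskeleton. Gna13 measured 157, 93.2 and 87.8 CPM and Gna12 8.91, 11.7 and 10.3 CPM, a log2 ratio per kb of 2.50 ± 0.63, positive in 3 of 3 libraries. For Gna12, 13.3% of exon bases lie under exons of Amz1 on the opposite strand.

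The sensory alpha subunits were at or near 0. Gnat1 of rod photoreceptors had no count in replicates 1 and 2 and 0.577 CPM in replicate 3, Gnat2 of cones measured 0, 0.324 and 0.115 CPM, and Gnat3, the gustducin of taste cells, had no count in any library. The counts of Gnat1 fell in the library with the fewest counts, and each of these genes was under 1 CPM in every library.

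Gnb1 made up most of the transcripts of the 4 beta subunit genes taken, which leave out Gnb4. It measured 1151, 1097 and 580 CPM, or 221 ± 73.9 CPM per kb, and took 83.1 ± 5.24% of the class. Gnb2, which encodes another widely expressed beta subunit, measured 7.88, 6.28 and 5.88 CPM. The log2 ratio of Gnb1 to Gnb2 per kb was 6.86, 7.12 and 6.30 in the 3 libraries, a mean of 6.76 ± 0.42 or 108-fold, the widest of the 8 pairs compared. It ranged from 6.33 with the longest coding transcript to 7.26 with the longest coding sequence. The annotation names 2 pseudogene copies of Gnb1, and since reads with more than 1 alignment stayed uncounted, the Gnb1 level is uncertain. Gnb2 shares 3.94% of its exon bases with other genes. Gnb3, the beta subunit of cones and retinal bipolar cells, had 1 count in all, in replicate 1.

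Gnb5, the divergent beta subunit that binds the R7 subfamily of RGS proteins in place of a gamma subunit, differed little between libraries in CPM. It measured 120.4, 130.4 and 120.1 CPM, and its highest library was 1.09 times its lowest. Among the 2029 detected genes averaging at least 100 CPM, 1.58% had a smaller ratio, and the median ratio was 1.65. These ratios are of CPM without further scaling. With TMM scaling, a correction for a few abundant genes taking up a library, Gnb5 measured 122, 137 and 113 CPM, lowest in replicate 3. Gnb1 was far lower in replicate 3 than in the others and Gnb5 was not, and the share of Gnb5 in the class was 12.4%, 13.9% and 21.9% in replicates 1, 2 and 3.

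**Figure D2:**
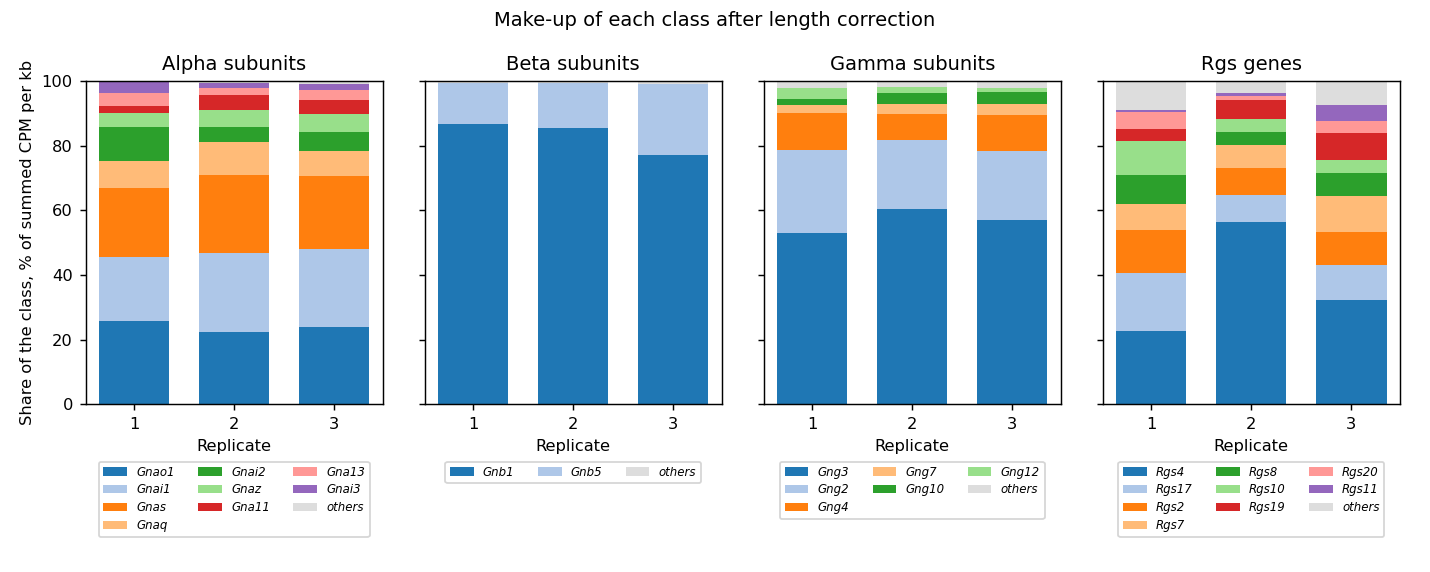
Share of each class taken by its members in each library, in percent of the summed CPM per kb of exon; genes with a mean share under 2% are drawn together as others. By this length Gnao1, Gnai1 and Gnas share the lead among alpha subunits. Gnb1 and Gng3 lead their classes in every library, and the share of Rgs4 swings between 22.8% and 56.3%.

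Gamma subunits anchor the beta-gamma pair in the membrane through a lipid at their end, and 3 of them carried the class. Gng3, a gamma subunit of neurons, measured 423, 642 and 295 CPM, or 276 ± 107 CPM per kb. Gng2, a gamma subunit common in brain, measured 553, 607 and 298 CPM, or 111 ± 37.7 CPM per kb. Gng4 measured 183, 174 and 116 CPM, or 47.2 ± 10.9 CPM per kb. The order Gng3, Gng2, Gng4 per kb held in 3 of 3 libraries. The shares of the class were 56.7 ± 3.73%, 22.9 ± 2.55% and 10.1 ± 1.79%.

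The order of Gng3 and Gng2 depended on the length used. The log2 ratio of Gng3 to Gng2 was 1.31 ± 0.25 per kb of exon, positive in 3 of 3 libraries, and 1.11 with the longest coding transcript. Without length correction it was −0.11 ± 0.25, and with the longest coding sequence −0.19 ± 0.25, neither larger than the spread between libraries. Of the exon bases of Gng3 24.2% lie under exons of Bscl2 on the opposite strand, and of those of Gng2 20.4% under exons of Gm48283. The strand setting of the counting was not given in the sources used here, so reads of such partners cannot be told apart from the members' own. Gng2 also has 1 annotated pseudogene copy.

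The remaining gamma subunits were lower. Gng7, which in the striatum serves receptors that raise cyclic AMP, measured 49.2, 76.4 and 41.2 CPM. The striatal projection neuron markers, led by Ppp1r1b, Penk and Drd1, summed to 177, 143 and 149.5 CPM, with Adora2a at 0 in replicates 1 and 2. The sum had a different library order from that of Gng7. Ppp1r1b, at 33.6, 92.9 and 34.1 CPM, was the only marker of this list highest in replicate 2, as Gng7 was. Penk, at 44.1, 23.3 and 47.6 CPM, and Drd1, at 21.6, 12.6 and 40.8 CPM, were lowest there. So was Drd2, at 47.1, 2.67 and 15.5 CPM. The part of such neurons in the Gng7 level was not tested. Gng10, a widely expressed gamma subunit, measured 12.1, 28.9 and 15.1 CPM, and 72.0% of its exon bases are shared with an overlapping gene model on the same strand, so its level is uncertain. Gng7 and Gng10 did not differ per kb beyond their spread, at 14.7 ± 4.87 and 14.3 ± 6.81 CPM per kb.

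Gng12, Gng5 and Gng11 were each lowest in replicate 3. Gng12, a widely expressed gamma subunit, measured 74.5, 55.6 and 17.3 CPM, the widest spread of any gamma subunit gene that was detected. Gng5, another widely expressed gamma subunit, measured 8.04, 6.80 and 2.42 CPM and has 1 annotated pseudogene copy. Gng11 measured 5.67, 5.59 and 1.96 CPM. In replicate 3 the levels of Gng5 and Gng11 rest on 21 and 17 counts. Gng13, known from taste and retinal cells, missed the detection threshold in replicate 1, with 0.864, 3.12 and 2.19 CPM, and 51.6% of its exon bases lie under exons of Chtf18 on the opposite strand. Gng8, known from olfactory neurons, measured 0.432, 0 and 1.62 CPM. The photoreceptor gamma subunits Gngt1 and Gngt2 had 0 and 5 counts in all.

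The R4 subfamily of small RGS proteins held the most abundant Rgs gene and the Rgs genes with no count. Rgs4, a regulator of Gi/o and Gq signalling that is prominent in cortical neurons, measured 146, 685 and 190 CPM. Replicate 2 was thus 4.69 times replicate 1. Rgs8, known from cerebellar Purkinje cells, measured 175, 147 and 131 CPM, and Rgs2, which acts mainly on Gq and is induced by neuronal activity, 99.0, 117 and 69.9 CPM. Rgs4 exceeded Rgs2 by 1.74 ± 0.99 on the log2 scale per kb, positive in 3 of 3 libraries, with 0.79, 2.77 and 1.67 in replicates 1, 2 and 3. Rgs16, which in mice follows a daily rhythm in the suprachiasmatic nucleus, measured 9.61, 8.51 and 7.96 CPM, and Rgs3 measured 3.24, 3.44 and 6.11 CPM. Rgs16 was close between libraries, and Rgs3 was highest in replicate 3.

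Rgs5, a gene of pericytes and vascular smooth muscle that some neurons also express, measured 28.7, 20.6 and 5.08 CPM. Of the 6 mural cell markers, led by Myh11, Pdgfrb and Vtn, 4 were detected, with a summed level of 104, 33.5 and 42.9 CPM and with Kcnj8 at 0 in replicates 1 and 2. The endothelial list, led by Slco1a4, Flt1 and Tek, summed to 35.7, 50.6 and 24.2 CPM. Replicate 1 was the highest for Rgs5 and for the mural list, but replicate 3 was the lowest for Rgs5 and not for the mural sum. Single markers differed: Myh11, at 47.2, 7.21 and 6.69 CPM, had the library order of Rgs5, and Abcc9, at 7.13, 8.51 and 2.999 CPM, was lowest in replicate 3 too. Vtn, at 7.93, 10.4 and 17.2 CPM, had the reverse order of Rgs5. Pdgfrb, at 19.2, 6.64 and 13.4 CPM, and Acta2, at 22.6, 0.648 and 1.27 CPM, were lowest in replicate 2. The part of vascular RNA in the Rgs5 level was not tested.

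The R4 genes of blood and immune cells were absent or scarce. Rgs1, known from lymphocytes and activated microglia, had no count in any library, and Rgs18, known from platelets, had 1 count in all. Rgs13, known from B and mast cells, measured 0.594, 1.94 and 0.692 CPM, and Rgs21, known from taste cells, had no count. Of the blood cell markers, led by Alas2, Hbb-bs and Hba-a2, 2 of 4 were detected, with 11.2 to 15.3 CPM in sum. The microglial markers, led by Cx3cr1, Aif1 and Csf1r, summed to 41.1, 25.1 and 35.0 CPM.

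R7 proteins act as complexes with Gnb5 and a membrane anchor. Rgs7 was the main one of the 3 R7 genes taken, which leave out Rgs9. Rgs7 measured 102, 170 and 125 CPM, or 22.0 ± 5.78 CPM per kb, beside 39.7 ± 1.88 CPM per kb for Gnb5. Without length correction Rgs7 averaged 132 CPM and Gnb5 124 CPM, so their order depended on the length used. The anchors Rgs7bp and Gpr158, which are not among the 51 genes, measured 40.1 ± 11.3 and 26.4 ± 0.988 CPM per kb. The other R7 genes taken were lower. Rgs6, which in the heart limits muscarinic signalling, measured 15.1, 12.6 and 10.3 CPM, and the log2 ratio of Rgs7 to Rgs6 per kb was 4.11 ± 0.54, positive in 3 of 3 libraries. Rgs11, which serves retinal bipolar cells together with Rgs7, measured 7.29, 10.4 and 38.1 CPM. It was highest in replicate 3, where its level rests on 330 counts. Of the retinal anchors, Rgs9bp had no count in any library and Gpr179 measured 2.29 ± 1.77 CPM.

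The RZ subfamily, which prefers Gz and Gi, was led by Rgs17. Rgs17 measured 307, 281 and 170 CPM, or 30.5 ± 8.79 CPM per kb, second to Rgs4 on average by this length. Rgs4 was above Rgs17 per kb in 3 of 3 libraries, by a log2 ratio of 1.55 ± 1.18. Without length correction Rgs17 was the higher of the pair in replicate 1. Rgs19, which binds Gi, measured 17.3, 51.0 and 35.2 CPM and Rgs20, which acts on Gz in brain, 45.7, 23.3 and 31.6 CPM, in opposite library order. The next ranks per kb were Rgs17, Rgs2 and Rgs7. Rgs17 was above Rgs2 by 0.20 ± 0.21 on the log2 scale, in 3 of 3 libraries, and Rgs2 above Rgs7 by 0.26 ± 0.40, in 2 of 3 libraries. Neither mean exceeded its SD. These ranks rest on the length used: annotated exons hold 8298 bases for Rgs17, 3627 for Rgs2 and 6019 for Rgs7. Their longest coding transcripts hold 8191, 3021 and 2431 bases, and by that length Rgs7 lies above Rgs17 and Rgs2.

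All 3 R12 genes were detected at low levels. Rgs10, which is strongly expressed in microglia and also in neurons, measured 37.4, 27.6 and 12.5 CPM. The microglial sum given above had its lowest value in replicate 2, not in replicate 3, and the microglial genes C1qa and C1qb were under 1 CPM in every library. Cx3cr1, at 19.8, 0.486 and 2.88 CPM, was highest in replicate 1 as Rgs10 was, and the part of microglial RNA in the Rgs10 level was not tested. Rgs12, which also binds Ras, measured 17.1, 14.5 and 15.1 CPM, and Rgs14, known in the hippocampus for limiting plasticity in area CA2, measured 13.01, 10.6 and 23.5 CPM. Rgs22, a large RGS protein known from testis, ranged from 0 in replicate 2 to 3.29 CPM in replicate 1.

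**Figure D3:**
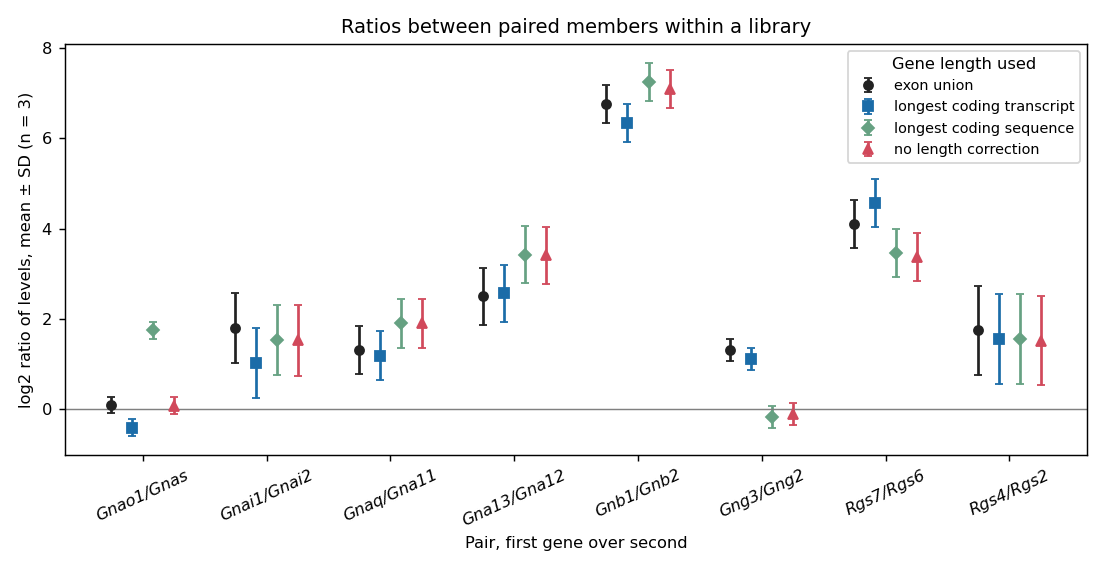
Log2 ratio of the levels of 8 pairs of members within a library, mean ± SD over 3 libraries, under 4 choices of gene length. The ratio of Gnb1 to Gnb2 is the widest, and only the pairs Gnao1/Gnas and Gng3/Gng2 have means on both sides of 0.

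Per kb of exon the first gene was ahead in every library in 7 of the 8 pairs, with a mean above the SD. The exception was Gnao1/Gnas, and for Gng3/Gng2 the result depended on the length used. Since the pairs were chosen with earlier results of these data known, that count is a description only. With 3 libraries the smallest p of a two-sided exact permutation of the signs is 0.25, so no pair could pass a threshold of 0.05. Each of the 7 had that smallest p, and 0.286 after Benjamini-Hochberg adjustment over the 8 pairs.

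Of the 20 Rgs genes 11 lie on chromosome 1, and genes that lie side by side there differed widely in level. In GRCm38 the genes Rgs2, Rgs13, Rgs1, Rgs21 and Rgs18 follow one another on the minus strand between positions 143999338 and 144775435, a span of 776 kb with no other protein-coding gene of the files between them. Rgs2 was at 69.9 to 117 CPM and the other 4 were at 0 to 1.94 CPM. Rgs8 and Rgs16 lie within 92.4 kb at positions 153653025 to 153745468, where Rgs8 measured 15.6 ± 2.30 and Rgs16 3.72 ± 0.359 CPM per kb. Rgs5 and Rgs4 lie within 92.1 kb at positions 169655501 to 169747642 on opposite strands. Rgs4 was highest and Rgs5 intermediate in replicate 2, while replicate 3 had the lowest Rgs5 and an intermediate Rgs4.

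**Figure D4:**
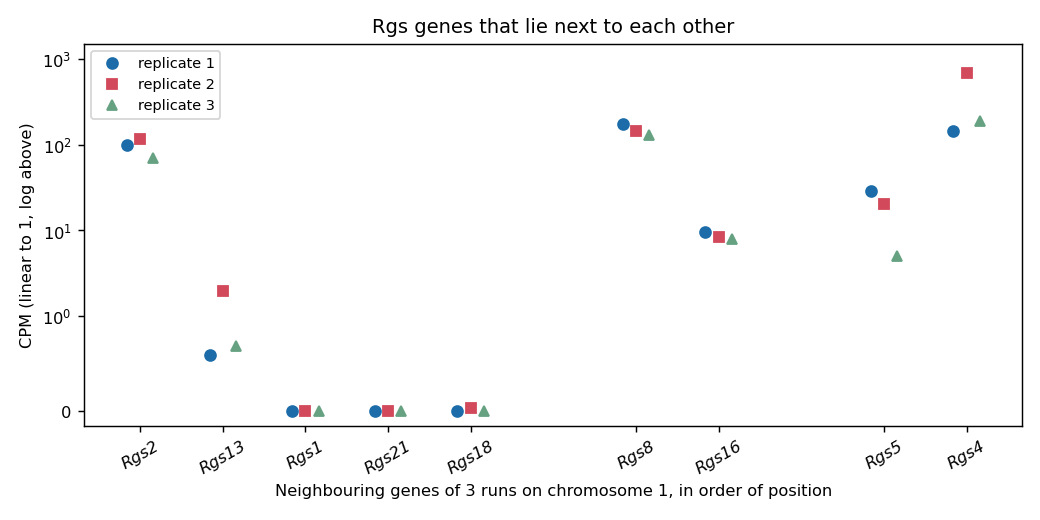
Level of neighbouring Rgs genes in 3 runs on chromosome 1, in order of position, in CPM on an axis that is linear to 1 and logarithmic above. Rgs2 stands at 69.9 to 117 CPM beside Rgs13, Rgs1, Rgs21 and Rgs18 at 0 to 1.94 CPM.

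The 250 bases before the start of 5 of these genes are shown because neighbours in the runs of Rgs2 and Rgs4 differ there in their content of the dinucleotide CG, which is set in capitals and reads the same on both strands. The sequences are from RefSeq (GRCm38.p6), 5′ to 3′ on the strand of the gene. Rgs1 and Rgs18 are named only.
Rgs2, chr1:144004150-144004399, minus strand: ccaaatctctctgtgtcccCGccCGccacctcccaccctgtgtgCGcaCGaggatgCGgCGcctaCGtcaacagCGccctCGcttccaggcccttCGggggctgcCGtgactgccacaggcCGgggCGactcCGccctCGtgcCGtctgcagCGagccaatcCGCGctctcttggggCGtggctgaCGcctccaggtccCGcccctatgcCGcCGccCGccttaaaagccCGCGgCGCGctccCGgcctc
Rgs13, chr1:144177373-144177622, minus strand: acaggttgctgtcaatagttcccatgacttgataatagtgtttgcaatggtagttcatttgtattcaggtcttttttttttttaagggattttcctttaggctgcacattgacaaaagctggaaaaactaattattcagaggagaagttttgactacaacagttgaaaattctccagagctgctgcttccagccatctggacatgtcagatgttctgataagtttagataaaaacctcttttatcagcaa
Rgs21, chr1:144567668-144567917, minus strand: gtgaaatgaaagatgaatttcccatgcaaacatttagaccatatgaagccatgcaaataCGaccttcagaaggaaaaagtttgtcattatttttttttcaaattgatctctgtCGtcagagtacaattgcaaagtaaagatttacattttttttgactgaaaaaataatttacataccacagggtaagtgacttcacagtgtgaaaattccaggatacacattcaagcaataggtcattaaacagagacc
Rgs4, chr1:169747643-169747892, minus strand: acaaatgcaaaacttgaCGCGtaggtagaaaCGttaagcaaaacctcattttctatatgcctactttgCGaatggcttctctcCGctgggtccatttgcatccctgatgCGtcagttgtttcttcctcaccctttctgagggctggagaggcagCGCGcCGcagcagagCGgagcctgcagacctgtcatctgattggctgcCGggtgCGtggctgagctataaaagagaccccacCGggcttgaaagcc
Rgs5, chr1:169655251-169655500, plus strand: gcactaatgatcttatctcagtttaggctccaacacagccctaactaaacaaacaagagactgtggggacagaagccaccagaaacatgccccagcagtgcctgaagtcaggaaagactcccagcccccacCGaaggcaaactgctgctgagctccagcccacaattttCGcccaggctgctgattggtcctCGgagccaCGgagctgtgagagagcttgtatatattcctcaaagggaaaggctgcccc

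The Rgs2 window holds 30 CG, a number that 5.94% of all windows of this length in the table reach. The Rgs13 and Rgs21 windows hold 0 and 2. The Rgs4 window holds 13 and the Rgs5 window 4, numbers reached by 31.5% and 62.2% of all windows. Rgs8 and Rgs16 go the other way: the windows of the more abundant Rgs8 hold 4, 5 and 9, and that of Rgs16 holds 17. Windows were matched for 39 of 51 members. Of the 30 detected ones 24 had 10 or more CG in their richest window, which is 80.0%, and of the 9 others 1 had. The same share was 80.3% over all detected genes with a window and 21.6% over all that were not detected, so the detected members had the share of detected genes at large. The number 10 was chosen after the values were seen, and a window's letters say nothing of which factors bind there.

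The members were compared between libraries by the ratio of their highest to their lowest level. The highest library was 1.92 times the lowest at the median over the 36 detected members and 1.95 times over all detected genes. At a mean of 100 CPM and above the medians were 1.77 for the 16 members and 1.65 for all genes of that level. In the test of variation between libraries (edgeR goodness of fit, Benjamini-Hochberg adjustment over 15336 genes), 0 of the 39 members tested were called as varying, against a background of 0.209% of all genes. At an unadjusted p under 0.05 there were 5 of 39, namely Rgs4, Gng12, Rgs22, Rgs5 and Rgs11, against a background of 7.82%. A gene that was not called is not thereby shown to be steady. DESeq2 marked 0 members as dispersion outliers, of 21 genes in all.

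Rgs4 came nearest to a call. Its unadjusted p was 0.000418 and its adjusted p from edgeR 0.108, with adjusted values of 0.0531 to 0.987 over 8 alternatives and 0.987 without replicate 2. Its ratio of 4.69 between highest and lowest library was larger than that of 99.6% of the detected genes averaging at least 100 CPM. Lypd1, whose regulatory DNA drives the tag, was also highest in replicate 2, at 232, 601 and 272 CPM, and the glutamatergic markers, led by Camk2a, Slc17a7 and Slc17a6, summed to 2562, 4133 and 2823 CPM. That sum is mostly Camk2a, at 2182, 3677 and 2408 CPM, whereas Slc17a6, at 127, 66.5 and 76.8 CPM, and Neurod6, at 15.01, 5.59 and 15.1 CPM, were lowest in replicate 2. The GABAergic markers, led by Gad2, Gad1 and Dlx1, summed to 675, 415 and 441 CPM. The part of the cells captured in the Rgs4 difference was not tested.

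**Figure D5:**
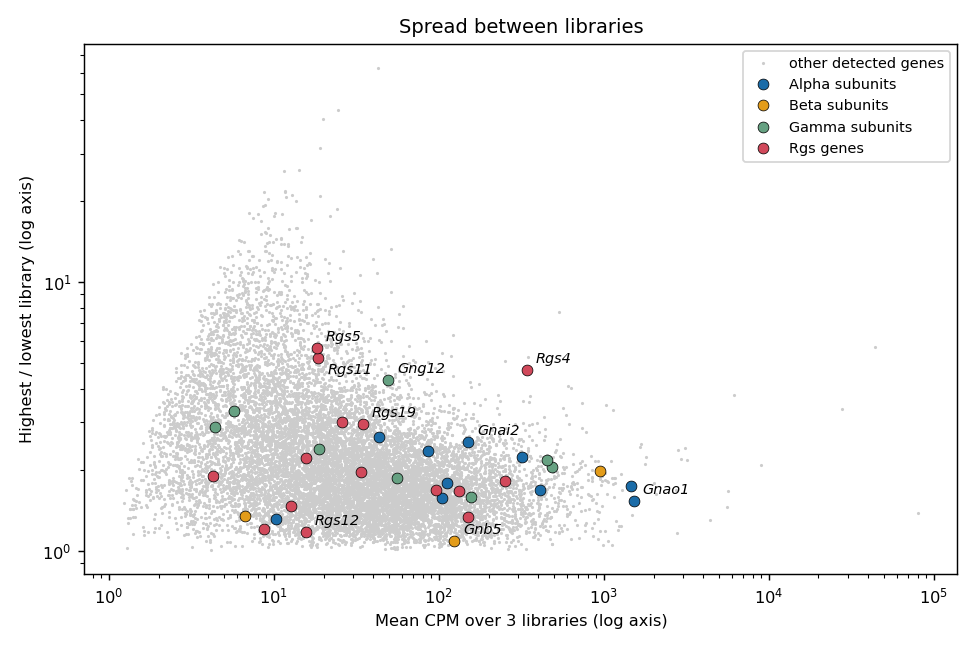
Ratio of the highest to the lowest library against the mean CPM for the detected genes, both on log axes, with the 36 detected members in colour. Rgs4 at 4.69 lies above nearly all genes of its level, Gnb5 at 1.09 near the bottom, and the other members lie within the cloud.

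Replicate 3 was the lowest library for 25 of the 36 detected members and the highest for 3. Over all detected genes it was the lowest for 31.4% and the highest for 36.3%. With TMM scaling, which corrects for a few abundant genes taking a larger part of a library, it was the lowest for 26 of the members and for 37.0% of all detected genes. The members highest in replicate 3 were Rgs11, Rgs14 and Rgs3. Replicate 3 also had the largest share of Malat1 and of reads in no counted feature, 45.3% against 31.4% and 25.6% in replicates 1 and 2, and the lowest sum of the 6 neuronal markers, led by Snap25, Map2 and Syn1, at 9134 against 11176 and 16838 CPM. The part of these in the members' order was not tested.

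Most other genes of the pathway were present as well. Of a list of 43 anchors, exchange factors, chaperones, receptor kinases, arrestins, effectors and other RGS-domain proteins, 37 were detected, against a background of 39.3% of all listed genes. Of 40 tested, 0 were called as varying, against 0.209% of all genes tested. At an unadjusted p under 0.05 (edgeR) there were 3 of 40, against a background of 7.82%. Neither count sets the list apart from genes at large. The median level of the list was 41.1 CPM. The highest were the guanine nucleotide exchange factors Kalrn and Trio, which Gq can engage, at 537 ± 42.4 and 498 ± 165 CPM. Arhgef12, an exchange factor that carries an RGS-like domain and answers to G12/13, followed at 408 ± 27.4 CPM, and Rgs7bp at 283 ± 80.0 CPM. Plcb1, the phospholipase C that Gq activates, measured 250.04 ± 39.4 CPM, Ccdc88a, a non-receptor modulator of Gi, 244 ± 70.0 CPM and Gpr158 215 ± 8.08 CPM. Arrb1, an arrestin that ends receptor signalling, measured 189 ± 46.7 CPM, the receptor kinase gene Adrbk2 131 ± 31.6 CPM and Prex2, a Rac exchange factor that beta-gamma activates, 127 ± 49.3 CPM. The 6 not detected were Rasd1, Gpr179, Pcp2, Gpsm3, Pdc and Rgs9bp.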

How the data were processed

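RNA captured with EGFP-tagged ribosomes was sequenced as 3 libraries, which form 1 group; the series names 3 mice. The deposited files give whole-number counts per gene, not normalized; the authors aligned reads with STAR 2.0.0e to mm10 and counted them with HTSeq, per the submitters' processing notes. Which gene models and strand setting were used is not given in the sources used here. Nothing says whether each library is 1 animal, so p-values measure only the spread between libraries, which may be technical. Each file lists 32532 genes and 5 summary classes, which stayed out of all totals; reads aligned to more than 1 place made up 16.5% to 32.7% of entries and reads in no feature 25.6% to 45.3%.

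Members, gene lists and pairs were chosen with earlier results of these data known. CPM were computed from the assigned totals. Exon lengths and positions come from GENCODE M21 (GRCm38, the assembly of mm10) and covered all 51 members. Variation between libraries was tested in edgeR 4.0.16 (R 4.3.3) by the goodness of fit of a model with only a mean, after TMM scaling and with dispersions taken from the trend, over the 15336 genes averaging at least 1 CPM; calls needed an adjusted p under 0.05. The procedure was first tested on simulated data. Paired members were compared by exact sign-flip permutation tests. Alternatives included DESeq2 1.42.0 size factors and dispersion outliers. Members with 1 CPM or more in each library are given by library, the others by their values or range; of the pathway list the 10 highest and of each marker list shown the 3 highest are named. Results on 2 marker lists are not reported here. Other steps used Python 3.11.15, pandas 2.3.3, numpy 2.4.6, SciPy 1.17.1 and matplotlib 3.10.9.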

Additional observations from a re-analysis of the deposited data

How the results depend on the processing

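For the counts, sums and pairs, 86 alternative values kept the direction of a pair, stayed within 1.5 times of a count or within the SD of a summed level. Of the others, 4 changed sign and 1 count moved. With 3 libraries, a sum with 1 library left out always stays within the SD of the mean. Those settings could not come out otherwise and say nothing about the sums. Keeping the direction did not mean keeping the size: with the longest coding sequence the log2 ratio of Gnao1 to Gnas was 1.75 against 0.086 and that of Gna13 to Gna12 3.42 against 2.50. The sign of Gnao1 against Gnas turned to −0.42 on the log2 scale with the longest coding transcript and to −0.0071 without replicate 1, and that of Gng3 against Gng2 to −0.19 with the longest coding sequence and −0.11 without length correction. Under another length the ratio shifts by the lengths alone, equally in each library. A common dispersion in place of a trended one called 1 member, Rgs22, 1 pathway gene and 780 genes in place of 32; the cause was not tested. Detected members numbered 38 at 0.5 CPM, 33 at 5 CPM and 36 to 37 with 1 library left out, and pathway genes 37 to 39. Leaving out 1 library gave 0 members called in each case, 5 to 22 genes called in all, and log2 ratios of −0.0071 to 0.18 for Gnao1/Gnas, 1.47 to 2.22 for Gnai1/Gnai2 and 1.23 to 2.22 for Rgs4/Rgs2. Replicate 3, with 8668527 counts, limits the members under 5 CPM. No paired analysis was possible because there is 1 group.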
